A study of Salmo salar with 6 samples.

Results

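The genes followed here in the head kidney of Atlantic salmon serve the lysosome: atp6v1ab and atp6v0d1, which encode subunits of the vacuolar proton pump, and npc1, which encodes the protein that exports cholesterol from the lysosome. They were selected on their differences between 2 diets in an earlier analysis of the same arrays, so these differences are given as a description, with no test. They were found through the RefSeq accession in each probe's name, and each had 1 probe with 1 spot per array, so that they take up 3 of the 42386 probes and 3 of the 25444 genes that could be matched. Their NCBI gene numbers are 106579446 for atp6v1ab, 106588021 for atp6v0d1 and 106569313 for npc1.

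The treated fish ate a diet with 0.1% MPLE, a plant additive made of sage and lemon verbena. The labels list ursolic acid, further triterpenic compounds, verbascoside and polyphenols in it. The control fish ate the same basal diet with no additive (0% MPLE). All were juveniles of 252 g, unvaccinated, treated with hydrogen peroxide and formaldehyde on arrival, and sampled after 133 days of feeding. RNA of 6 fish was pooled at a time, giving 3 MPLE pools and 3 control pools, each read on 1 one-colour array. The labels do not say which tanks each pool drew on.

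The vacuolar proton pump acidifies lysosomes, endosomes and the Golgi. Its cytosolic V1 sector hydrolyses ATP and turns a rotor, and its membrane-bound V0 sector carries the protons across. The low pH serves the acid hydrolases of the lysosome, among them the lipase that frees cholesterol from lipoprotein esters, and NPC1 then moves that cholesterol out through the lysosomal membrane. In the salmon head kidney, which holds blood-forming tissue, macrophages and hormone-secreting interrenal cells, such pumps are housekeeping machinery in every cell and are abundant in phagocytes. These roles are known from yeast and mammals.

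Levels are log2 values of the processed spot intensity relative to each array's 75th percentile over all spots that are not controls. That percentile was 710, 499 and 570 intensity units in MPLE pools 1, 2 and 3 and 394, 470 and 138 units in control pools 1, 2 and 3. The dimmest MPLE array thus lay above the brightest control array. Between 18046 and 33020 of 42438 spots per array were well above background, and the number of arrays limits the precision. The lowest count was on control pool 3, against 25868 and 25418 on control pools 1 and 2, and the highest on MPLE pool 2. Control pool 3 also had the most outlier spots, 205, next to 189 on MPLE pool 2. Each array lay on its own slide, 0 slides and 0 slide positions held both diets, and the scans of control pools all came first, so slide, position and scan order cannot be told apart from diet. Over the 23132 probes tested, 0.342% passed an adjusted p of 0.05 between the diets in limma, 0.303% higher and 0.0389% lower with MPLE, with a median log2 change of -0.01.

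The transcript of atp6v1ab, the A subunit, which forms the catalytic sites of V1 together with subunit B, was higher with MPLE in every pool. Its probe read 38751, 31802 and 32118 intensity units in MPLE pools 1, 2 and 3. It read 4401, 7784 and 653 units in control pools 1, 2 and 3. The ranges of the diets did not overlap, and the MPLE pools lay close together while control pool 3 stood far below the other control pools. On the scaled log2 axis the levels were 5.77, 5.99 and 5.82 in MPLE pools, against 3.48, 4.05 and 2.25 in control pools. The means were 5.86 ± 0.12 in MPLE pools and 3.26 ± 0.92 in control pools (SD, n = 3 each), a log2 difference of 2.60 or 6.07-fold. Without control pool 3 the difference was 2.10. In pooled tissue RNA, more cells of a type and more RNA per cell cannot be told apart.

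The npc1 transcript was also higher in every MPLE pool. NPC1 is a polytopic membrane protein with a sterol-sensing domain, and in humans its loss causes Niemann-Pick disease type C, in which cholesterol accumulates in lysosomes. Its probe read 12713, 7363 and 5398 units in MPLE pools 1, 2 and 3, and 2168, 3570 and 148 units in control pools 1, 2 and 3. The levels were 4.16, 3.88 and 3.24 in MPLE pools, against 2.46, 2.93 and 0.10 in control pools. The diets did not overlap, but the gap was narrow, at 0.32 between MPLE pool 3 and control pool 2, and control pool 3 was again the lowest. The means were 3.76 ± 0.47 in MPLE pools and 1.83 ± 1.51 in control pools (SD, n = 3 each), a log2 difference of 1.93 or 3.82-fold. Without control pool 3 the log2 difference was 1.07, so that 1 library carried much of it.

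The transcript of atp6v0d1 was lower with MPLE after scaling. It encodes subunit d of V0, which sits on the ring of proteolipids and joins it to the rotor shaft of V1. Its levels were -2.23, -2.88 and -3.14 in MPLE pools 1, 2 and 3, against -1.58, -1.65 and -1.73 in control pools 1, 2 and 3. The diets did not overlap, and here it was the control pools that lay close together. The means were -2.75 ± 0.47 in MPLE pools and -1.65 ± 0.08 in control pools (SD, n = 3 each), a log2 difference of -1.10, or 2.14-fold lower with MPLE. The unscaled signals did overlap: the probe read 151, 67.6 and 64.8 units in MPLE pools and 132, 150 and 41.5 units in control pools. In the deposited series values, which are not scaled between arrays, the log2 difference was -0.0032, and with arrays centred on the spike-in probes it was -1.54.

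**Figure D1:**
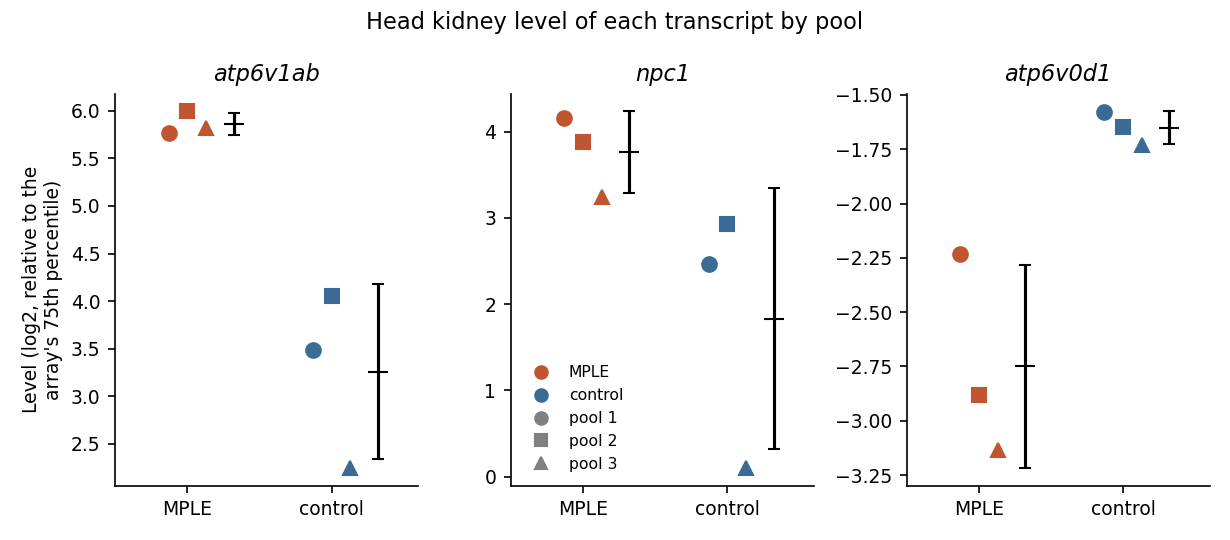
Level of atp6v1ab, npc1 and atp6v0d1 (log2, relative to the array's 75th percentile, vertical axes of different range) in each of the 3 MPLE and 3 control pools, with the mean and SD beside the points. The MPLE pools of atp6v1ab sit between 5.77 and 5.99, above all control pools, while those of atp6v0d1 sit between -3.14 and -2.23, below all control pools.

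All 3 transcripts thus had pools that did not overlap between diets, higher with MPLE for atp6v1ab and npc1 and lower for atp6v0d1. Among all probes tested, 29.2% had diets that did not overlap, and by direction 16.5% of the probes tested had the MPLE pools higher and 12.7% had them lower. Nothing is read from the members' count, since the same contrast chose them. The change of atp6v1ab was above that of 99.2% of the probes tested and that of npc1 above 97.6%, while 3.11% of the probes had a lower change than atp6v0d1.

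Spot quality was read from the image software's own flags and errors. Each of the 3 probes stood well above background on each of the 6 arrays, and 0 of their spots were flagged as outliers or saturated. The spot error given by the image software was 10.0% of the signal for atp6v1ab on every array, 10.0% to 10.1% for npc1 and 10.4% to 17.7% for atp6v0d1, the dimmest of them. For atp6v1ab and npc1 this error stayed near 10% whatever the signal, so it does not tell their spots apart in quality. On control pool 3 the npc1 error was 10.1%, although the processed signal was 148 units against 317 background-subtracted. The atp6v0d1 signal stood 1.79 to 9.01 times above the lowest signal called well above background on the MPLE arrays, and 4.53 to 7.28 times on the control arrays.

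The position of a probe in its array's order of brightness needs no scaling, and it had the same directions. It comes from the same signals on which the members were selected, so it is a description and not separate support. The atp6v1ab probe was brighter than 98.98% to 99.03% of spots on the MPLE arrays and 88.8% to 97.4% on the control arrays. For npc1 these percentile ranks were 94.98 to 97.42 on MPLE arrays and 75.7 to 94.6 on control arrays. The ranks of atp6v0d1 were 47.3 to 53.7 on MPLE arrays and 59.5 to 62.7 on control arrays. No rank of one diet fell within the range of the other for any of the 3 transcripts. Ranks describe brightness and are not amounts of transcript, since probes differ in how well they bind.

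The image software also corrects each spot for trends across the array, and this step bore unequally on the members' spots. For atp6v1ab the processed signal was 0.76 times the background-subtracted signal on control pool 3 and 1.15 times on control pool 1, against medians of 1.09 and 0.94 over those arrays' spots well above background, and the ratio was 0.97 to 1.03 on the other arrays. The processed signal of npc1 was 0.47 times the background-subtracted signal on control pool 3. On the other 5 arrays the ratio for npc1 lay between 0.82 and 1.00. For atp6v0d1 the ratio was 1.63 on control pool 1, against an array median of 0.94, and 0.97 to 1.12 on the other arrays. With the signal taken without this step and scaled in the same way, an alternative chosen after seeing the data, the differences were 2.70 for atp6v1ab, 1.73 for npc1 and -0.83 for atp6v0d1, and the diets did not overlap for any of them.

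The pump subunits were next set against each other within each array, where any scaling between arrays cancels. Levels of 2 probes cannot be compared with each other, so only the change of their difference between diets is read. The atp6v1ab level minus the atp6v0d1 level was 8.00, 8.88 and 8.95 in MPLE pools 1, 2 and 3, against 5.06, 5.70 and 3.98 in control pools 1, 2 and 3. Every MPLE pool lay above every control pool. This had to follow, since each of the 2 transcripts alone did not overlap between diets and they went in opposite directions. The mean difference was 8.61 ± 0.53 in MPLE pools and 4.91 ± 0.87 in control pools (SD, n = 3 each). That is a change of 3.70, which combines the 2 selected differences, or a 13.0-fold shift of the atp6v1ab transcript relative to that of atp6v0d1. The change was 3.23 without control pool 3, 3.54 without detrending and 3.63 after normexp background correction.

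The same was done against the median of the 9 other pump genes measured on every array, and against atp6v1ba, both chosen after seeing the data. For atp6v1ab this difference was 3.85, 3.89 and 3.95 in MPLE pools 1, 2 and 3, and 1.13, 2.18 and 0.32 in control pools 1, 2 and 3, a change of 2.69. For atp6v0d1 it was -4.15, -4.98 and -5.00 in MPLE pools and -3.93, -3.52 and -3.65 in control pools, a change of -1.01. Both changes are close in size to those seen with array scaling, and the diets did not overlap in either. Both rest on the signals used for the selection, so they are a description and not separate support. Without detrending, the atp6v0d1 change against these genes was -0.65 and the diets overlapped, and after normexp correction it was -0.68 with overlap, whereas those of atp6v1ab were 2.89 and 2.95 with no overlap. Against atp6v1ba alone, the subunit B that alternates with subunit A in the V1 head, the atp6v1ab difference was 1.58, 1.46 and 1.53 in MPLE pools and -1.24, -0.27 and -3.38 in control pools.

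**Figure D2:**
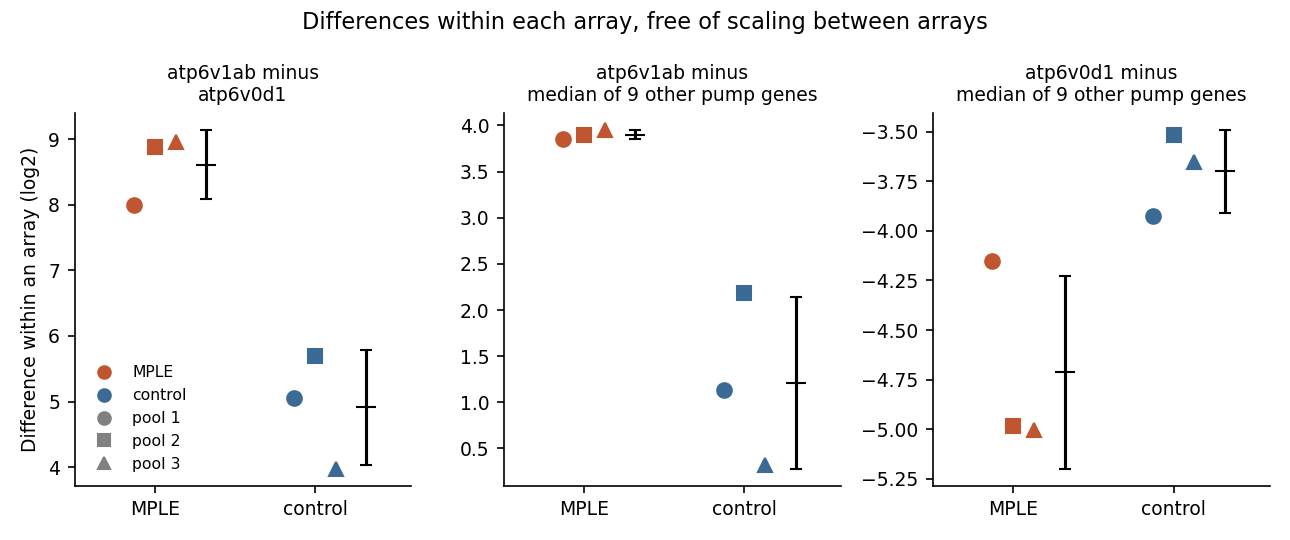
Differences within each array (log2) for atp6v1ab minus atp6v0d1 and for each of these minus the median of 9 other pump genes, in 3 MPLE and 3 control pools with mean and SD. The first difference is 8.00 or more in the MPLE pools and 5.70 or less in the control pools, and the third has its nearest pools of the diets at -4.15 and -3.93.

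None of the other pump genes that could be tested passed between diets. Besides the members, 11 pump genes had a named probe and 10 could be tested. The lists held 20 symbols for V1, 14 for V0 and 12 for accessory and assembly proteins. Besides the members, 4, 5 and 1 genes of these lists were tested, so much of the pump was not measured by a named probe. Of the 10, 0 passed the adjusted threshold in limma in either direction, under the same model that called 0.342% of all probes. At an unadjusted p under 0.05 there were 0, against 17.7% of all probes. Array weights, an intensity trend with robust variance and the other alternatives also called 0 at the adjusted threshold. With spike-in centring, however, 4 of the 10 reached an unadjusted p under 0.05, with a median of -0.51. In that setting 929 of all 23132 probes were higher and 7313 lower at that p, with a median of -0.46. In the 75th percentile scaling the median log2 change of the 10 genes was -0.07, beside -0.01 over all probes. Of the 10, 4 were above 0, beside 49.5% of all probes. In V1, subunit B (atp6v1ba) had levels of 4.19, 4.54 and 4.29 in MPLE pools and 4.72, 4.32 and 5.62 in control pools, a log2 change of -0.55 with a 95% interval of -1.42 to 0.32 (adjusted p = 0.443, limma). Subunit H (vath), which regulates the coupling of V1 to V0, had a change of -0.40 (adjusted p = 0.522, limma), and in both the diets overlapped. The stalk subunits gave 0.00 for atp6v1f and -0.14 for atp6v1g1, with adjusted p of 0.994 and 0.833.

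In V0, the a subunits, which line the proton path, had changes of -0.01 for atp6v0a1a and -0.12 for tcirg1a, the isoform that in mammals serves osteoclasts. Their adjusted p were 0.978 and 0.833 in limma. The proteolipid subunits that form the rotor ring gave -0.47 for atp6v0cb, 0.04 for atp6v0ca and 0.34 for vato, the last from 2 MPLE pools because its spot was flagged as an outlier on the other. Among these 3 the lowest adjusted p was 0.412, for atp6v0cb, whose MPLE pools (3.33, 3.52 and 3.49) lay just below its control pools (3.75, 3.58 and 4.42). The assembly factor vma21, which helps build V0 in the endoplasmic reticulum, had a change of 0.25 (adjusted p = 0.654, limma). Across the 10 genes the 95% intervals ran from -1.42 at the lowest to 1.11 at the highest. The -1.10 of atp6v0d1 lay inside the intervals of atp6v1ba, vath and atp6v0cb, whereas the 2.60 of atp6v1ab lay above all 10, and both values are ones the members were selected on. The assembly-related gene ncoa7a was well above background on 1 array only and was not tested.

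**Figure D3:**
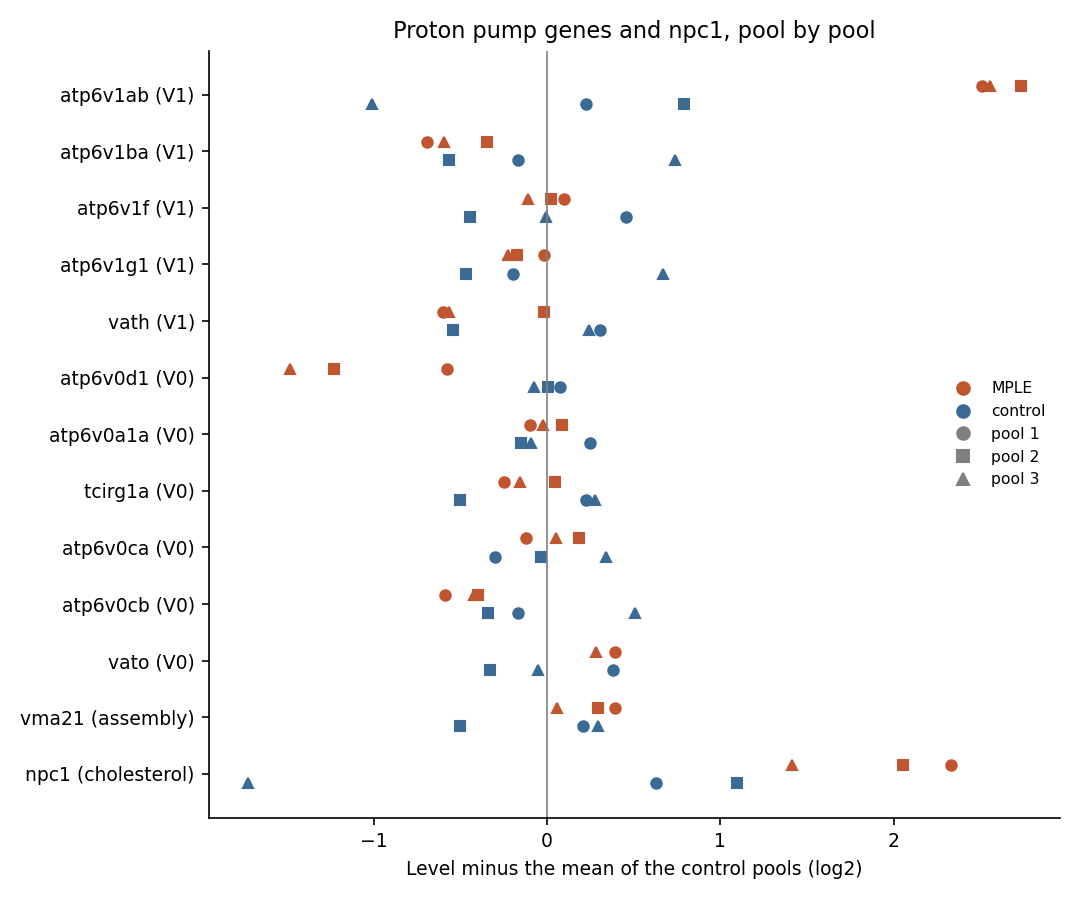
Level in each pool minus the mean of the control pools (log2) for atp6v1ab, atp6v0d1, the 10 other pump genes tested and npc1, with the MPLE pools drawn above the control pools of each gene. The MPLE points of the other pump genes lie within the spread of the control points or beside it, while those of atp6v1ab and npc1 lie to the right and those of atp6v0d1 to the left.

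The other genes of lysosomal cholesterol handling had changes between -0.19 and 0.34. Of 9 with a named probe 6 could be tested, with a median of 0.03. In limma 0 passed the adjusted threshold or an unadjusted p under 0.05, beside 0.342% and 17.7% of all probes. Its soluble partner NPC2, which hands cholesterol to NPC1 inside the lysosome, was measured by npc2.1, with levels of -1.24, -1.45 and -1.63 in MPLE pools and -1.70, -1.16 and -0.97 in control pools. The diets overlapped, and the change was -0.16 (adjusted p = 0.762, limma). The lysosomal membrane proteins had changes of 0.13 for lamp1, -0.07 for lamp2 and 0.34 for scarb2a. The liver X receptor gene nr1h3, a sterol-activated transcription factor, had 0.21 and osbpl1a, an oxysterol-binding protein, -0.19, and the adjusted p of these 6 ran from 0.541 to 0.917. The sterol transporters npc1l1 and abcg1 and the cholesterol-esterifying enzyme gene soat1 were not well above background on any array.

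Among lysosomal hydrolases and the proteins that process or sort them, 28 genes were tested, with a median change of 0.12. Of these 0 passed, beside 0.342% of all probes. The smallest p belonged to idua, an enzyme that degrades glycosaminoglycans, at 1.01 (adjusted p = 0.161), lgmn, an asparaginyl endopeptidase, at 1.12 (adjusted p = 0.31), and sumf1, which activates sulfatases, at -0.60 (adjusted p = 0.332, all limma). For idua, 1 control array gave no signal well above background, and the change was 0.11 after normexp correction. Like npc1, lgmn had its lowest level in control pool 3, at 2.52 against 4.54 and 4.07 in the other control pools.

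Of 12 lysosomal membrane genes tested, 0 passed, beside 0.342% of all probes, and the median was 0.08. At an unadjusted p under 0.05, 3 were higher. Among all 23132 probes, 2653 were higher at that p in limma. These 3 were mfsd8, a membrane transporter of the lysosome (1.26, adjusted p = 0.118), ostm1, partner of a lysosomal chloride and proton exchanger (0.98, adjusted p = 0.139), and slc15a4, a proton-coupled peptide and histidine transporter (1.16, adjusted p = 0.207). For mfsd8 the levels were 3.88, 4.16 and 3.85 in MPLE pools, against 2.61, 3.22 and 2.27 in control pools, which did not overlap.

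Nutrient sensing at the lysosome is carried out by a complex in which the pump takes part together with the amino acid sensor SLC38A9 and the Rag GTPases. Of 13 genes tested there 0 passed, beside 0.342% of all probes, and 2 were higher at an unadjusted p under 0.05. Their median was -0.18 over all 13. The level of slc38a9 was 4.93, 4.69 and 5.40 in MPLE pools, against 3.92, 3.13 and 2.13 in control pools, a change of 1.95 (adjusted p = 0.118, limma). The Rag gene rraga had 1.20 (adjusted p = 0.224) but was well above background on 1 control array, and it was -0.07 after normexp correction. The change of flcn, which acts on Rag GTPases, was -0.48 (adjusted p = 0.321). The probe of tfeb, the transcription factor that drives lysosomal genes, was well above background on 2 MPLE arrays and 1 control array and was not tested. With array weights, mfsd8, ostm1 and slc38a9 passed higher and lamtor5 (-0.94, named after its value was seen) lower, under a fit that called 1545 higher and 503 lower probes in all. Over these 4 lists 59 genes were tested, with 31 of them above 0, beside 49.5% of all probes, and a median of 0.07. At an unadjusted p under 0.05, 6 were higher and 0 lower, beside 2653 higher and 1443 lower of all 23132 probes (17.7% in either direction). This balance depended on the filter and on scaling. Among the 6 higher genes, idua and rraga met the filter through the MPLE arrays alone. When both diets had to meet it, 1496 of 16870 probes were higher and 1523 lower at that p. Of the listed genes 49 were then tested, 5 reached that unadjusted p and the median was -0.03. With spike-in centring 23 of the 59 reached that unadjusted p, and their median was -0.37. There 929 of all probes were higher and 7313 lower at that p, and the median of all probes was -0.46.

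The transcripts whose levels over the 6 arrays ran most like those of the members are given as a description. For atp6v1ab, Pearson's r was 0.996 with deaf1, a transcription factor, 0.994 with lyve1b, named for a hyaluronan receptor, and 0.992 with the amino acid transporter slc6a19. Their log2 changes were 1.02, 2.18 and 2.08. Taken over deviations from the diet means, r was 0.971, 0.991 and 0.953. With 6 arrays many probes reach a high r: 511 of 22719 (2.25%) had r over 0.95 with atp6v1ab, a lower bar than the values named. For npc1 the nearest were tmc8 (0.993), dnajc19, a mitochondrial import factor (0.993), and tmem120aa (0.992), with changes of 0.83, 1.78 and 1.36, and 452 probes had r over 0.95. For atp6v0d1 they were angel1 (0.985), ppfibp1b (0.976) and the nucleoporin nup214 (0.965), with changes of -1.08, -0.87 and -0.70, and 43 probes were over 0.95. Between the members, r was 0.917 for atp6v1ab with npc1 and 0.936 over deviations from the diet means. Both transcripts ran in the same order over the control pools, control pool 2 highest and control pool 3 lowest. Over the MPLE pools their orders differed, with atp6v1ab highest in MPLE pool 2 and npc1 highest in MPLE pool 1. For atp6v1ab with atp6v0d1, r was -0.82, and 0.06 over deviations. Arrays share brightness and scaling, which enter every such value.

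Some other measures moved with the same pools. Spike-in RNA, added to each labelling reaction, is added in equal amount whatever the diet. Of its 10 probes E1A_r60_n9 was at 8.49 ± 0.09 on MPLE arrays and 6.34 ± 0.70 on control arrays (SD, n = 3 each), lowest on control pool 3 at 5.56. E1A_r60_n9 thus differed by 2.16. E1A_r60_3, a dim probe at -1.78 on MPLE arrays and -4.69 on control arrays, differed by 2.91, and the other 8 by -0.48 to 0.72. The 2.60 of atp6v1ab was exceeded only by the dim E1A_r60_3, and the 1.93 of npc1 by E1A_r60_3 and E1A_r60_n9. The part of such differences in the result was not tested. The spike-in probe nearest to atp6v1ab in brightness on the MPLE arrays, E1A_r60_a97, was 5.66 on MPLE arrays and 4.95 on control arrays, a difference of 0.72. It was 5.53, 4.98 and 4.33 in control pools 1, 2 and 3, so it too was lowest on control pool 3. On the control arrays the nearest was E1A_r60_a22, at 3.05 on MPLE arrays and 3.29 on control arrays, a difference of -0.24. Unlike E1A_r60_n9 and E1A_r60_a97 it was highest on control pool 3, at 3.30, 2.68 and 3.88 in control pools 1, 2 and 3. Control pool 3 was also the highest of all arrays for E1A_r60_1 (9.88), E1A_r60_n11 (8.12), E1A_r60_a20 (2.01), E1A_r60_a107 (-1.80) and E1A_r60_a104 (-4.45). The spike-in probes thus did not move alike on that array.

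Markers of cells that the head kidney holds were present. Genes of interrenal cells (star), neutrophils (mpx, mmp9, csf3r), red cells (hba, hbb, alas2), B cells (cd79b) and macrophages (cd68, c1qa, c1qb) stood well above background in every pool, while the interrenal gene cyp17a1 was so in 1. The red cell genes went in both directions: hba and hbb had changes of 1.28 and 1.48 from 2 MPLE pools, as spots of the other were left out as outliers, alas2 had 0.11, slc4a1b 2.22 and gata1 -0.61. Of 5 neutrophil genes tested 4 were above 0, with a median of 0.28. The changes were 1.14 for csf3r, 0.49 for ncf4, 0.28 for lyz, 0.03 for mmp9 and -0.93 for mpx, the last from 2 control pools. None of these red cell and neutrophil genes passed the adjusted threshold in limma. The diets overlapped for alas2, slc4a1b, ncf4, lyz and mmp9, and slc4a1b was well above background on 1 control array. Of the kidney tubule markers lrp2a and lrp2b were not well above background on any array and slc12a3 and cubn were so on 1 each and cdh17 on 2. For the ionocyte markers foxi3a and kcnj1b, of a cell type rich in proton pumps, it was 4 and 2 of the 6 arrays. Skeletal muscle markers were summed over 5 genes as signal relative to the 75th percentile, which gave 2.09, 1.91 and 3.52 in MPLE pools 1, 2 and 3, against 9.11, 6.19 and 41.3 in control pools 1, 2 and 3. In control pool 3 ckmb was the brightest of the 5, at a log2 level of 5.14. The log2 changes were -2.99 for ckmb, -2.57 for casq1b, -2.16 for actn3b and -1.69 for TNNT3. The change of casq1 went the other way, at 0.28, with diets that overlapped. None of the 5 passed the adjusted threshold in limma. Control pool 3, with the highest muscle sum, had the lowest atp6v1ab and npc1. The sum over 4 T cell genes was 6.01, 5.83 and 5.92 in MPLE pools and 5.06, 3.96 and 2.76 in control pools, in the same direction as atp6v1ab and npc1. None of these 4 genes passed the adjusted threshold in limma (adjusted p of 0.242 to 0.536), and cd3e was well above background on 2 control arrays. The sum over 3 macrophage genes overlapped between the diets, at 132, 161 and 134 in MPLE pools and 150, 119 and 257 in control pools. These genes did not move alike, with log2 changes of -0.78 for cd68, 0.01 for c1qa and 0.51 for c1qb. Only c1qb had diets that did not overlap, as had 29.2% of all probes tested. None of the 3 passed the adjusted threshold in limma. In control pool 3 cd68 was the brightest of them, at a log2 level of 7.39. The part of these cells in the members' levels was not tested.

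How far the members' differences depended on processing is shown over all settings. With spike-in centring the npc1 difference was 1.49 and the diets overlapped, and for atp6v0d1 they overlapped after normexp correction (-0.92) and in the deposited values.

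**Figure D4:**
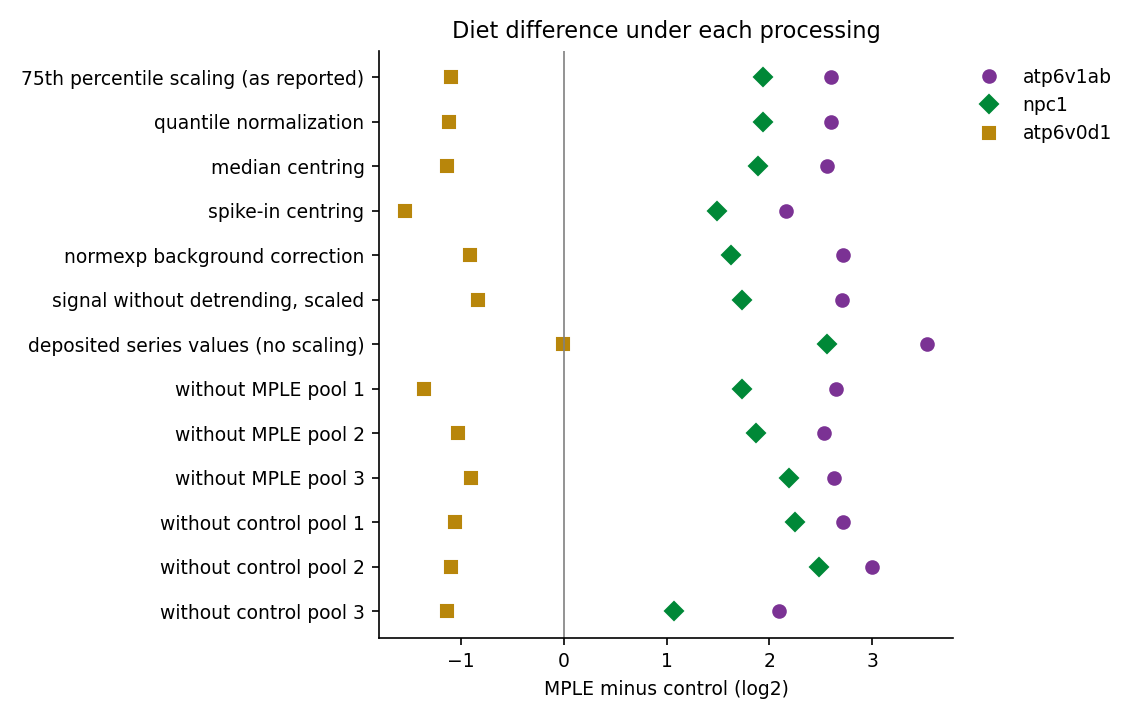
Difference between the diets, MPLE minus control (log2), of atp6v1ab, npc1 and atp6v0d1 under each scaling, background correction and omission of a pool. The differences of atp6v1ab run from 2.10 to 3.53 and those of npc1 from 1.07 to 2.56, all above 0, while those of atp6v0d1 run from -1.54 to -0.0032.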

How the data were processed

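RNA was labelled with Cy3 and hybridised as cRNA to one-colour arrays, per the labels' protocols. Per the file headers, these were Agilent arrays of design 084881, read with Feature Extraction 10.7.3.1 (protocol GE1_107_Sep09), which gives a background-subtracted, detrended intensity per spot that is not scaled between arrays. Its flags and control types are other values of the deposited files. The authors deposited series values that are log2 of the background-subtracted intensity (equal within 5e-09), with column medians from 5.19 to 7.52 and no scaling or centring between arrays.

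From these, log2 of the processed intensity minus each array's 75th percentile was computed, spots flagged as outliers were left out and repeat spots of 1 probe were averaged. A probe entered the fit if all arrays of either diet had it well above background. The fit was made with limma 3.58.1 (R 4.3.3), two-sided, with diet alone as a term and Benjamini-Hochberg adjustment over all probes at 0.05. The p-values set the difference between diets against the spread among pools of the same diet, labelling and array included. Slide, position and scan order went with diet, so that spread does not cover their part in the difference.

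Accessions in probe names were matched without versions to RefSeq genes of assembly Ssal_v3.1, for names only and without coordinates, since no source used here names the build behind the probes (25641 of 42386 probes had a gene, 8297 a named one). Lists were matched by symbol with an optional paralogue suffix. The members and lists were chosen with earlier results of these data known. Named were all pump genes tested, the 3 genes of smallest p in each other list and the 3 named genes most like each member. Names outside this rule (npc2.1, lamp1, lamp2 and genes not tested) were chosen after their values were seen. A search for salmon genes with closely similar proteins was planned and not run, since no protein sequences were used here, so cross-reading between near-identical copies, common in salmonids, was not tested. Alternatives were other scalings, normexp correction (offset 50, on median signals), the deposited values, filters, variance models, a block and leaving out each array. A percentile without outlier spots and a signal without detrending were chosen after seeing the data.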

Additional observations from a re-analysis of the deposited data

How the results depend on the processing

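The differences of atp6v1ab, npc1 and atp6v0d1 kept their sign under every alternative run, though that of atp6v0d1 was -0.0032 in the deposited values, where no scaling between arrays is made, and -1.54 with spike-in centring. That of atp6v1ab was 3.53 in the deposited values. Leaving out 1 array gave 2.10 to 3.00 for atp6v1ab, 1.07 to 2.48 for npc1, -1.36 to -0.91 for atp6v0d1 and 3.23 to 4.09 for atp6v1ab against atp6v0d1. The median change of all probes was -0.46 with spike-in centring, -0.21 with normexp, 0.23 without detrending and 1.05 in the deposited values. Spike-in centring subtracts the mean of all spike-in spots, so it moves all probes of an array alike. That mean includes E1A_r60_3 and E1A_r60_n9, which differed by 2.91 and 2.16, beside -0.48 to 0.72 for the other 8 probes. In the deposited values the difference in brightness between arrays stays in. The cause of the shifts with normexp and without detrending was not tested.

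The number of probes past the threshold was 79 and varied widely. It was 24 with quantile normalization, 537 with median centring, 14 with spike-in centring, 24 with normexp, 0 in the deposited values (3803 higher and 51 lower at an unadjusted p under 0.05), 9 without detrending, 108 with the percentile taken without outlier spots, 123 with outlier spots kept, 0 with no filter on dim probes (2376 higher and 1790 lower at an unadjusted p under 0.05) and 2048 with array weights. Leaving out 1 array gave 0 to 133 in limma. Omitting MPLE pool 1, 2 or 3 left 0, with 1547 to 1964 higher and 601 to 823 lower at an unadjusted p under 0.05. Omitting control pool 1 also left 0, with 3525 higher and 1550 lower at that p, whereas 133 passed when control pool 2 was omitted and 113 when control pool 3 was. With the pool number as a replicate block it was 249. Same-numbered pools correlated at -0.177, -0.34 and 0.083 in their deviations, and pools of different number at -0.32 to 0.47. With 3 pools per diet these values cannot tell whether the numbers pair the pools. None of the other pump genes tested passed under any of these settings, and of the other lysosomal and cholesterol genes 4 passed with array weights.

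Of 416 alternative values of 22 named genes, 43 changed sign, in 16 genes, all without a call. With quantile normalization atp6v0a1a was 0.075. With median centring atp6v0ca was -0.0046 and atp6v1f -0.037. Spike-in centring gave -0.41 for atp6v0ca, -0.44 for atp6v1f, -0.24 for nr1h3, -0.11 for scarb2a, -0.12 for vato and -0.20 for vma21. Normexp gave 0.076 for atp6v0a1a, -0.16 for atp6v1f, 0.41 for atp6v1g1, 0.29 for osbpl1a, -0.069 for rraga and -0.21 for vma21. The deposited values gave 0.95 for atp6v0a1a, 0.29 for atp6v0cb, 0.49 for atp6v1ba, 1.20 for atp6v1g1, 0.21 for flcn, 1.36 for osbpl1a, 0.72 for sumf1, 0.86 for tcirg1a and 0.35 for vath. Without detrending, atp6v0a1a was 0.12, atp6v1f -0.10, atp6v1g1 0.37, osbpl1a 0.54 and tcirg1a 0.034. Array weights gave -0.35 for atp6v1f and -0.15 for nr1h3. Leaving out 1 array spanned -0.088 to 0.11 for atp6v0a1a, -0.12 to 0.21 for atp6v0ca, -0.22 to 0.23 for atp6v1f, -0.37 to 0.19 for atp6v1g1, -0.030 to 0.45 for nr1h3, -0.43 to 0.034 for osbpl1a, -0.37 to 0.018 for tcirg1a and -0.0041 to 0.39 for vma21. The planned search for close relatives of the members was not run. With 3 pools per diet and atp6v0d1 dim, the arrays limit what can be told of it.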
